A study of Homo sapiens with 31 samples.

Results

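Matriptase and 9 further genes of cell-surface proteolysis were followed through 4 colorectal cancer lines, a normal colon line and mixtures of their RNA. The 10 genes were taken by symbol from the 17113 protein-coding genes of the count table, and all 10 were present and passed the filter on low counts. They comprised 7 serine protease genes (ST14, PRSS8, TMPRSS2, TMPRSS4, KLK6, KLK10 and KLK11) and 3 genes of protease inhibitors (SPINT1, SPINT2 and SERPINA1).

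The cancer lines were LoVo, LS1034, HT-29 and HCT116, which the labels describe as untreated, wild-type adenocarcinoma cells of the colon or, for LS1034, of the cecum. They were set against CCD841CoN, labelled as a normal, untreated, wild-type colon line. Each line had 3 libraries of unmixed total RNA, and each cancer line also had 1 mixture at 0.1, 1, 10 and 50% cancer RNA in CCD841CoN RNA. The mixtures were made to test how the proportion of cancer RNA can be inferred from a bulk profile. The labels do not say if replicate libraries are separate cultures, and p-values therefore measure only the spread between these libraries, which may be technical. With 1 normal line, cancer origin and cell type cannot be told apart. Summed fibroblast markers reached 1.51 to 38.2 CPM (counts scaled to the coding total of each library) in the cancer lines, against 31948 to 38298 CPM in CCD841CoN libraries, while summed epithelial markers ran from 3489 to 24804 CPM in the cancer lines and from 240 to 315 CPM in CCD841CoN, where ESRP1 had no count. In a bulk RNA sample, fewer cells with a transcript and less transcript per cell cannot be told apart.

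Matriptase, the product of ST14, is a type II transmembrane serine protease of epithelial surfaces. It activates, and can be activated by, the membrane-anchored protease prostasin (PRSS8), and both are held in check by the Kunitz-type membrane inhibitors HAI-1 (SPINT1) and HAI-2 (SPINT2). TMPRSS2 and TMPRSS4 belong to the same transmembrane family as matriptase. KLK6, KLK10 and KLK11 encode secreted kallikrein-related peptidases, and SERPINA1 encodes alpha-1-antitrypsin, a secreted serpin made mainly by the liver that inhibits neutrophil elastase.

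ST14, SPINT1 and SPINT2 were high in all 4 cancer lines. ST14 had 139, 384 and 294 CPM in LoVo, 632, 945 and 736 CPM in LS1034, 802, 734 and 824 CPM in HT-29 and 155, 268 and 290 CPM in HCT116, against 0.0812, 0 and 0 CPM in CCD841CoN. No cancer library overlapped CCD841CoN, and every LS1034 and HT-29 library lay above every LoVo and HCT116 library. The 3 CCD841CoN libraries held 2 ST14 counts in all. The ratio to CCD841CoN was taken from counts pooled over the 3 libraries of each line and scaled to their pooled totals. It was 17927 in HT-29, with a 95% counting interval of 4962 to 148032, and 5170 in HCT116, with an interval of 1431 to 42697.

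SPINT1 had 117, 194 and 227 CPM in LoVo, 383, 325 and 539 CPM in LS1034, 481, 441 and 318 CPM in HT-29 and 57.9, 103 and 104 CPM in HCT116, against 1.30, 1.03 and 2.17 CPM in CCD841CoN. HCT116 lay below each of the other cancer lines in every library. The log2 fold change against CCD841CoN was 6.59 ± 0.42 (SE) in LoVo, 7.88 ± 0.44 in LS1034, 7.88 ± 0.44 in HT-29 and 5.59 ± 0.40 in HCT116, with adjusted p-values of 5.96e-09, 1.33e-09, 1.90e-09 and 2.27e-08.

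SPINT2 had 234, 366 and 509 CPM in LoVo, 754, 694 and 919 CPM in LS1034, 1154, 1006 and 1474 CPM in HT-29 and 346, 403 and 589 CPM in HCT116, against 2.48, 2.23 and 2.17 CPM in CCD841CoN. HT-29 was above the other cancer lines in every library, and LoVo and HCT116 overlapped. The log2 fold change against CCD841CoN was 8.80 ± 0.43 (SE) in HT-29 (adjusted p = 9.45e-10) and 6.99 ± 0.40 in LoVo (adjusted p = 2.42e-09). SPINT2 shares 5355 bases of gene span, introns included, with PPP1R14A on the opposite strand. The overlap of their exons was not computed, and whether counting used the strand is not given in the sources used here. PPP1R14A averaged at most 0.0723 CPM in a cancer line and 2.79 ± 1.28 CPM in CCD841CoN, where SPINT2 averaged 2.29 ± 0.16 CPM (SD, n = 3 each).

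The other 7 genes had no count in any CCD841CoN library, which at 3 counts over the 3 libraries allows up to 0.0652 CPM. KLK10 was at 10.9 CPM or more in every cancer library, and the other 6 averaged under 1 CPM in at least 1 cancer line, as the plot of CPM by library shows.

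**Figure D1:**
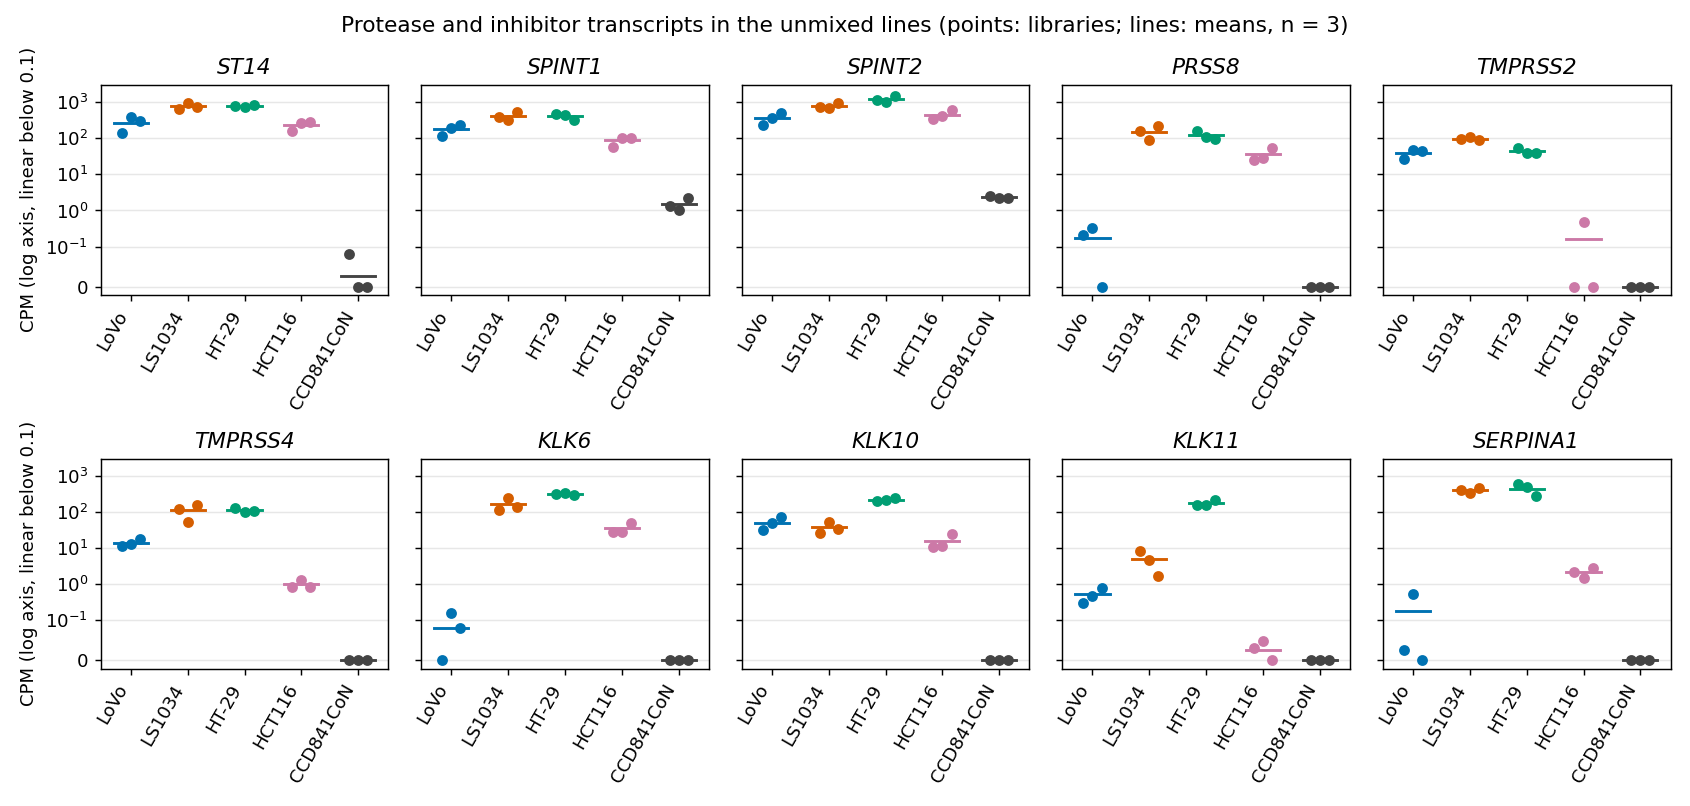
CPM of the 10 genes in each unmixed library (points, 3 per line) with the mean of each line (horizontal lines), on a log axis that is linear below 0.1. ST14, SPINT1 and SPINT2 stand between 57.9 and 1474 CPM in every cancer library, while the other 7 genes have no count in CCD841CoN and differ between the cancer lines.

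PRSS8, the prostasin gene, was almost missing from LoVo. It had 0.214, 0.322 and 0 CPM in LoVo, 157, 88.1 and 214 CPM in LS1034, 158, 111 and 98.3 CPM in HT-29 and 25.3, 27.7 and 54.5 CPM in HCT116, against 0 in CCD841CoN. The level was at least 2343-fold higher in LS1034 than the CCD841CoN floor, at least 1874-fold in HT-29, at least 549-fold in HCT116 and at least 2.74-fold in LoVo. LoVo held 16 PRSS8 counts in 3 libraries. Its call against CCD841CoN (adjusted p = 0.0309) was lost without LoVo replicate 1 (0.0688) or 2 (0.0758), or without CCD841CoN replicate 1 (0.108), 2 (0.0570) or 3 (0.0522).

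TMPRSS2 was near 0 in HCT116. It had 26.8, 46.8 and 45.1 CPM in LoVo, 96.5, 108 and 87.3 CPM in LS1034, 52.2, 38.5 and 38.5 CPM in HT-29 and 0, 0.485 and 0 CPM in HCT116, against 0 in CCD841CoN. LS1034 lay above LoVo and HT-29 in every library, and LoVo and HT-29 overlapped. All 10 HCT116 counts were in 1 library, and the difference of HCT116 from CCD841CoN did not pass (adjusted p = 0.0995). It passed without HCT116 replicate 1 (0.0329) or 3 (0.0467) and with DESeq2 (0.0489).

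TMPRSS4 was low in HCT116 and intermediate in LoVo. It had 11.3, 13.2 and 18.4 CPM in LoVo, 123, 53.8 and 154 CPM in LS1034, 132, 97.6 and 106 CPM in HT-29 and 0.817, 1.31 and 0.833 CPM in HCT116, against 0 in CCD841CoN. LS1034 and HT-29 overlapped, LoVo lay between them and HCT116, and the 4 lines were at least 1692-fold (LS1034), 1717-fold (HT-29), 220-fold (LoVo) and 15.1-fold (HCT116) above the CCD841CoN floor.

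The 3 kallikrein genes lie in the same direction on the minus strand of chromosome 19, with 2040 bases between KLK10 and KLK11 and 43065 bases between KLK6 and KLK10 in GENCODE release 29 (GRCh38). By mean CPM all 3 were highest in HT-29, and none had a count in CCD841CoN, but the order of the other cancer lines differed between them. KLK6 had 0, 0.161 and 0.0797 CPM in LoVo, 111, 238 and 141 CPM in LS1034, 316, 341 and 300 CPM in HT-29 and 27.4, 28.2 and 50.6 CPM in HCT116, against 0 in CCD841CoN. LoVo held 5 counts in all, and its difference from CCD841CoN did not pass (adjusted p = 0.139), except without LoVo replicate 1 (0.0484).

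KLK10 was present in every cancer line. It had 31.6, 49.2 and 71.9 CPM in LoVo, 25.5, 53.0 and 34.0 CPM in LS1034, 203, 213 and 238 CPM in HT-29 and 10.9, 11.7 and 24.0 CPM in HCT116, against 0 in CCD841CoN. LoVo and LS1034 overlapped, and HT-29 lay above every other library. KLK11 was also highest in HT-29. It had 0.294, 0.483 and 0.797 CPM in LoVo, 8.32, 4.79 and 1.72 CPM in LS1034, 156, 154 and 209 CPM in HT-29 and 0.0303, 0.0485 and 0 CPM in HCT116, against 0 in CCD841CoN. HCT116 held 2 KLK11 counts, so no fold against CCD841CoN is given there, and the difference did not pass (adjusted p = 0.360).

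SERPINA1 was high in LS1034 and HT-29. It had 0.0267, 0.523 and 0 CPM in LoVo, 404, 333 and 473 CPM in LS1034, 587, 483 and 273 CPM in HT-29 and 2.18, 1.5 and 2.78 CPM in HCT116, against 0 in CCD841CoN. LS1034 was at least 6191-fold and HT-29 at least 6867-fold above the CCD841CoN floor, and the difference of LoVo, with 14 counts, did not pass (adjusted p = 0.0611), except without LoVo replicate 1 (0.0233) or 3 (0.0415), with library size only (0.0451) and with DESeq2 (0.0221). The sum of 3 hepatocyte markers stayed below 1 CPM in every unmixed library, with a highest value of 0.971 CPM in HCT116.

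By the call used here, an adjusted p below 0.05 with a log2 fold change of at least 1 in size, 8 of the 10 genes were higher in LoVo than in CCD841CoN, where 26.5% of the 14452 genes tested were called higher and 21.6% lower. All 10 were called higher in LS1034 (25.7% of all genes higher, 21.4% lower), all 10 in HT-29 (24.7% higher, 20.9% lower) and 8 in HCT116 (25.4% higher, 21.2% lower). In the mean of the 4 cancer lines against CCD841CoN all 10 were called higher (24.8% of all genes higher, 22.3% lower), and none was called lower in any of the 5 comparisons. The exception in the mean was TMPRSS2 without HCT116 replicate 2, where it had no count left in HCT116 and was not called (adjusted p = 1). The median log2 fold change of the 10 genes was 6.79 in LoVo, 13.88 in LS1034, 14.35 in HT-29 and 7.96 in HCT116, against 0.23, 0.24, 0.21 and 0.23 for all genes, and fitted values against a group with no count depend on the prior count. The comparisons share the 3 CCD841CoN libraries. Since the 10 genes were chosen with earlier results of these data known, their counts of calls, here and below, are descriptions. Set beside the shares of all genes, they are no test of the set.

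Summed over the 10 genes, HT-29 libraries gave 3847 ± 214 CPM, LS1034 2946 ± 315 CPM, LoVo 927 ± 322 CPM and HCT116 862 ± 245 CPM, against 3.82 ± 0.54 CPM in CCD841CoN (SD, n = 3 each). At a mean of 10 CPM or more, 10 of the genes were present in HT-29, 9 in LS1034, and 6 each in LoVo and HCT116. The 4 genes under that level were PRSS8, KLK6, KLK11 and SERPINA1 in LoVo, and TMPRSS2, TMPRSS4, KLK11 and SERPINA1 in HCT116.

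The cancer lines were next compared with each other. LoVo was lower than HT-29 in 9 of the 10 genes and higher in none (13.4% of all genes called lower, 13.7% higher), the exception being TMPRSS2. LoVo was lower than LS1034 in 8 and higher in none (12.8% of all genes lower, 13.2% higher), with TMPRSS2 and KLK10 not called. Without LoVo replicate 1, SPINT2 fell short of the limit on size there (log2 fold change -0.95). The largest of these differences were in KLK6, with a log2 fold change of -12.14 ± 0.67 (SE) for LoVo against HT-29 (adjusted p = 4.98e-08), in SERPINA1, with -11.25 ± 0.77 (adjusted p = 2.83e-07), and in PRSS8, with -9.57 ± 0.67 for LoVo against LS1034 (adjusted p = 2.23e-07).

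HT-29 was higher than HCT116 in all 10 genes (15.2% of all genes called higher, 15.4% lower), and LS1034 was higher than HCT116 in 9 (16.6% higher, 16.3% lower). KLK11 differed most, with 173 ± 31.0 CPM in HT-29 and 0.0263 ± 0.0245 CPM in HCT116 (SD, n = 3 each). The ratio of pooled counts, scaled to pooled totals, was 6183 with a counting interval of 1711 to 51065. By mean CPM, TMPRSS2 was 602-fold and SERPINA1 188-fold higher in LS1034 than in HCT116, with adjusted p-values of 8.84e-07 and 5.92e-07. SPINT2 was the gene not called between LS1034 and HCT116: its log2 fold change of 0.86 ± 0.30 (SE; adjusted p = 0.0335) was below the limit on size, and reached 1.14 (adjusted p = 0.0160) without HCT116 replicate 3. The KLK10 call between these lines (log2 fold change 1.29 ± 0.38 (SE), adjusted p = 0.0159) was lost without LS1034 replicate 2 (0.0706) or HCT116 replicate 1 (0.0503) or 2 (0.0603).

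LoVo and HCT116 had similar sums but different genes. LoVo was higher in SPINT1, TMPRSS2, TMPRSS4, KLK10 and KLK11 and lower in PRSS8, KLK6 and SERPINA1 (11.9% of all genes called higher, 10.2% lower). TMPRSS2 averaged 39.6 ± 11.1 CPM in LoVo and 0.162 ± 0.280 CPM in HCT116, while KLK6 averaged 0.0802 ± 0.0805 CPM in LoVo and 35.4 ± 13.2 CPM in HCT116 (SD, n = 3 each). The adjusted p was 3.97e-06 for TMPRSS2 and 2.25e-07 for KLK6. ST14 and SPINT2 were not called, with log2 fold changes of 0.16 ± 0.33 and -0.29 ± 0.30 (SE). SPINT1 sat at the limit on size, with a log2 fold change of 1.01 ± 0.32 (SE; adjusted p = 0.0296), and lost its call without LoVo replicate 2 (0.0612) or 3 (0.114) or HCT116 replicate 1 (0.0964), with a replicate block (log2 fold change 0.996) and with only the compared groups in the fit (0.96, adjusted p = 0.0928).

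LS1034 and HT-29 had the fewest calls of the 10 genes among the 6 pairs. KLK10 and KLK11 were lower in LS1034, and the other 8 genes were not called (11.4% of all genes called higher, 11.2% lower). KLK10 averaged 37.5 ± 14.1 CPM in LS1034 and 218 ± 17.7 CPM in HT-29 (SD, n = 3 each), with a log2 fold change of -2.58 ± 0.40 (SE; adjusted p = 2.66e-04). KLK11 averaged 4.94 ± 3.30 CPM in LS1034 and 173 ± 31.0 CPM in HT-29 (SD, n = 3 each), a log2 fold change of -5.16 ± 0.52 (SE; adjusted p = 5.85e-06). For ST14, SPINT1, TMPRSS4 and SERPINA1 the log2 fold changes were -0.07 ± 0.33, -0.0012 ± 0.32, -0.03 ± 0.37 and -0.16 ± 0.47 (SE).

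Libraries of the same number deviated together between the cancer lines, so the fit with the replicate number as a block is given where it changes a call. With the block, KLK6 was called lower in LS1034 than in HT-29 (adjusted p = 0.0287, against 0.0702 without it) and TMPRSS2 lower in LoVo than in LS1034 (0.0396, against 0.0704 without it). TMPRSS2 had a log2 fold change of -1.36 ± 0.53 (SE) there and 1.14 ± 0.53 for LS1034 against HT-29 (adjusted p = 0.137), and DESeq2 called both (0.00548 and 0.0252), as did the fit of only the compared groups (0.00680 and 0.00566). Without HCT116 replicate 1, 2 or 3 LoVo against LS1034 was called at 0.0290, 0.00406 and 0.0450, and without HCT116 replicate 2 the LS1034 and HT-29 one at 0.0101. KLK6 in LS1034 against HT-29 was also called without LS1034 replicate 2 (0.0408) and with only the compared groups (0.0287).

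**Figure D2:**
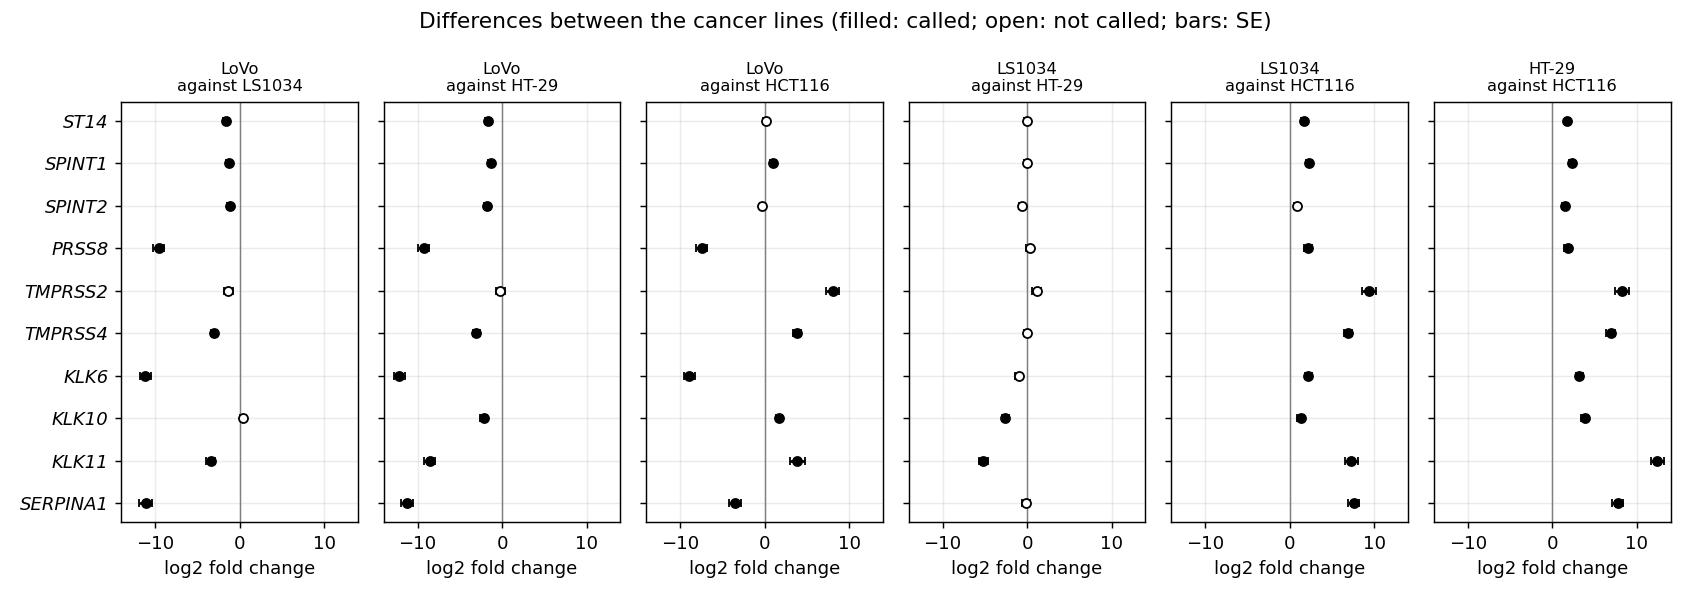
Log2 fold change of each gene in the 6 comparisons between cancer lines (the line named first over the second). Bars are the approximate standard error derived from the test statistic, and filled points mark where the gene was called. KLK10 and KLK11 are the filled points of LS1034 against HT-29, and all 10 points are filled for HT-29 against HCT116.

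Divided by the length of annotated exons, levels can be set against each other between genes only roughly. The length is the union of exons over all annotated transcripts, such as 9948 bases over 20 transcripts for TMPRSS4 and 1976 over 7 for KLK6. Which transcripts were expressed is not known, so the order of genes, here and in the ratios below, depends on these lengths. ST14 reached 181 ± 10.8 CPM per kb in HT-29 and 54.7 ± 16.6 CPM per kb in HCT116 (SD, n = 3 each). SPINT1 reached 117 ± 24.0 and SPINT2 233 ± 46.1 CPM per kb in HT-29. KLK6, at 161 ± 10.4 CPM per kb, was in the same range in HT-29, while TMPRSS4 was at 11.3 ± 1.82 CPM per kb.

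Within a library, the level of HAI-1 transcript per kb was below that of matriptase in every cancer library but 1 of LoVo. The ratio of SPINT1 to ST14 per kb was 0.868 ± 0.218 in LoVo, 0.689 ± 0.244 in LS1034, 0.650 ± 0.152 in HT-29 and 0.456 ± 0.016 in HCT116 (SD, n = 3 each), with library values of 0.621 to 1.04 in LoVo and of 0.440 to 0.472 in HCT116. The ratio of SPINT2 to ST14 per kb was 1.22 ± 0.36 in LoVo, 0.886 ± 0.236 in LS1034, 1.28 ± 0.19 in HT-29 and 1.61 ± 0.31 in HCT116. HCT116 thus had the lowest mean ratio for HAI-1 and the highest for HAI-2, and its lowest HAI-2 ratio, 1.26, was inside the range of HT-29 and LoVo. The ratio of PRSS8 to ST14 per kb was 0.304 ± 0.150 in LS1034, 0.225 ± 0.056 in HT-29 and 0.219 ± 0.063 in HCT116, and 0.00114 ± 0.00111 in LoVo. The ratio of KLK10 to KLK6 per kb was 0.119 ± 0.005 in LS1034, 0.353 ± 0.047 in HT-29 and 0.220 ± 0.020 in HCT116, and these 3 ranges did not overlap.

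Across the 15 unmixed libraries, log2(CPM + 1) of ST14 had a Pearson coefficient of 0.994 with SPINT2 and 0.986 with SPINT1. PRSS8 and KLK6, on different chromosomes, had 0.982, and TMPRSS2 and TMPRSS4 had 0.938. The lowest value among all pairs was 0.421, for PRSS8 and TMPRSS2. These coefficients are descriptions: the points are libraries of 5 lines, and the contrast with CCD841CoN is shared by all.

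Outside the set, the genes closest to ST14 by the same measure, among 11372 genes, were GLB1L2 (0.996), TMC6 (0.995) and VAMP8 (0.992). GLB1L2 averaged 65.3 CPM in LoVo, 144 in LS1034, 143 in HT-29 and 62.1 in HCT116, against 0 in CCD841CoN. CGN, which encodes the tight-junction protein cingulin, was closest to SPINT1 (0.994), before MAPK13 and TMC6 (0.993 each), and TMC6 was closest to SPINT2 (0.992), before CBLC (0.990) and LSR (0.989). MUC13, a membrane mucin gene, was closest to TMPRSS2 (0.994), with 82.1 CPM in LoVo, 227 in LS1034, 149 in HT-29 and 0.170 in HCT116, against 0 in CCD841CoN, before EPS8L3 (0.994) and GPR35 (0.993).

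FOXA3, a forkhead transcription factor gene, was closest to PRSS8 (0.985), before MYOM3 and PLEKHB1 (0.978 each). MYOM3 was closest to KLK6 (0.982), before FOXA3 (0.965) and SLC22A18AS (0.963), an antisense gene whose counts may hold reads of its partner. ITGB6, an integrin subunit gene, was closest to TMPRSS4 (0.988), before TRIM29 (0.987) and LGALS4 (0.981). CASZ1 was closest to KLK10 (0.989), before SEMA4B (0.979) and NCBP2AS2 (0.975). BCAS1 (0.987), TM4SF4 (0.983) and LYZ, the lysozyme gene (0.983), were closest to KLK11. LYZ averaged 2368 CPM in HT-29 and at most 4.15 CPM in the other lines. MUC20, another mucin gene, was closest to SERPINA1 (0.990), with 38.4 CPM in HT-29 and 26.8 CPM in LS1034, before ANXA9 (0.985) and HGD (0.984).

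Start-site sequences were at hand for 5 of the 10 genes in the RefSeq table (GRCh38.p14). For SPINT1, KLK6, KLK11 and SERPINA1, the longest stretch free of annotated exons in the 250 bases before the first listed start is printed on the strand of the gene, since these genes differ in which lines carry them. Capitals mark the letters CACCTG in either orientation. The SPINT1 stretch is chr15:40843798-40844017 on the plus strand. The others are on the minus strand, at chr19:50969674-50969841 for KLK6, chr19:51027704-51027896 for KLK11, which lies inside the GENCODE gene between exons, and chr14:94390694-94390885 for SERPINA1.
SPINT1: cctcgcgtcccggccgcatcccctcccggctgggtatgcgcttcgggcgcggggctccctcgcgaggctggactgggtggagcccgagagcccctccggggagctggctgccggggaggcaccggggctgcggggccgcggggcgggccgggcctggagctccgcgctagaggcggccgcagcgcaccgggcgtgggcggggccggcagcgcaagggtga
KLK6: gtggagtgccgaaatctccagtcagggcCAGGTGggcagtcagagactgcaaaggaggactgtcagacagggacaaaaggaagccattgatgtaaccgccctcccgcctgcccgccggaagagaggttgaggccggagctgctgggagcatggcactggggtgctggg
KLK11: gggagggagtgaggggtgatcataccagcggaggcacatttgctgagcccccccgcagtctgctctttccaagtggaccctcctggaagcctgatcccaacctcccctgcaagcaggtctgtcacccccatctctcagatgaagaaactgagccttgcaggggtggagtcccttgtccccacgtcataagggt
SERPINA1: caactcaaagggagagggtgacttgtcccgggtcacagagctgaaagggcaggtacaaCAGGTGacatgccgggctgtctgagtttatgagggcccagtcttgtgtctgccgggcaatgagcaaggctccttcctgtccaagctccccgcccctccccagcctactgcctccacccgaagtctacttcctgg

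Among the 5 matched genes, the first windows of KLK6 and SERPINA1 held CACCTG, the E-box letters bound by ZEB and SNAI factors, as did 17.5% of the 35116 windows of the same length in the table. The second windows of SPINT1 and KLK11 also held it. AACCNGTT, the letters of grainyhead-like factors, was in none of the 5 first windows and in 1.49% of all windows. GTTAAT, the HNF1 half-site, and TGANTCA, the AP-1 letters, were also in none of the 5, against 6.23% and 6.57% of all windows. Both strands were searched for each. A later start of SERPINA1, in a window that GENCODE annotates as exon, held GTTAAT at chr14:94388661-94388690 on the minus strand, with the match in capitals.
SERPINA1 site: ggggtgaccttgGTTAATattcaccagcag

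Other genes of the same proteolytic system were read from lists by family, also chosen with earlier results of these data known. Of 14 other type II transmembrane serine proteases, 7 could be tested, and in the mean of the cancer lines against CCD841CoN 3 were higher and 1 was lower, where 24.8% of all genes were called higher and 22.3% lower. TMPRSS3 rose most in the mean of the lines, with 14.1 ± 8.53 CPM in LS1034 and 9.69 ± 8.09 CPM in LoVo, against 0 in CCD841CoN (SD, n = 3 each). CORIN, the protease that activates atrial natriuretic peptide, was the one that fell, with 0.594 CPM in the cancer lines and 3.32 CPM in CCD841CoN. The other anchored trypsin-like proteases gave 1 higher of 3 tested in that mean (24.8% of all genes), PRSS22, at 24.5 CPM in HT-29 and 17.6 CPM in LS1034. In LS1034 itself 2 of the 3 were higher (25.7% of all genes). The second was TPSG1, with 19.5 ± 9.37 CPM in LS1034 (SD, n = 3) against 0 in CCD841CoN (adjusted p = 3.27e-05). TPSG1 also had no count in LoVo, and was not called in the mean.

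Of 10 other kallikreins tested, 9 were higher in LS1034 (25.7% of all genes), 4 in HT-29 (24.7%), 5 in HCT116 (25.4%) and 1 in LoVo (26.5%) than in CCD841CoN, and none was lower. KLK1, tissue kallikrein, averaged 179 ± 24.0 CPM in LS1034 and 3.02 CPM in HT-29, against 0 in CCD841CoN. KLK7, a protease of skin shedding, averaged 28.5 CPM in HCT116 and at most 1.54 CPM in the other lines. Their median log2 fold change against CCD841CoN was 7.23 in LS1034 and 1.68 in LoVo, against 0.24 and 0.23 for all genes.

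Among 10 other Kunitz, Kazal and WAP inhibitors tested, 5 were higher and 4 lower in LoVo (26.5% of all genes higher, 21.6% lower), 6 higher and 3 lower in LS1034 (25.7% and 21.4%), 6 higher and 2 lower in HT-29 (24.7% and 20.9%), and 1 higher and 4 lower in HCT116 (25.4% and 21.2%). SPINK5, an inhibitor of kallikreins in skin, averaged 109 ± 33.4 CPM in LoVo, and SPINK1, the pancreatic trypsin inhibitor, 510 ± 283 CPM in LS1034, against 0 for both in CCD841CoN. TFPI, the tissue factor pathway inhibitor, fell in LoVo, with 1.51 CPM, in LS1034, with 13.3 CPM, and in HCT116, with 65.3 CPM, against 345 CPM in CCD841CoN. In HT-29 it had 337 CPM and was not called.

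Of 17 other serpins tested, 3 were higher and 8 lower in the mean of the cancer lines (24.8% of all genes higher, 22.3% lower), with a median log2 fold change of -0.89 against 0.22 for all genes. By line, 2 were higher and 8 lower in LoVo (26.5% of all genes higher, 21.6% lower), and 6 and 8 in HT-29 (24.7% and 20.9%). HCT116 had 5 and 9 (25.4% and 21.2%), but LS1034 8 and 5 (25.7% and 21.4%), with a median of 1.21. SERPINF2, with no count in CCD841CoN or LoVo, was not called in the mean (SE 10170), but was called higher in LS1034, HT-29 and HCT116. SERPINB5, maspin, averaged 683 ± 48.7 CPM in LoVo, against 0.0572 CPM in CCD841CoN. Among those that fell in the mean was SERPINB2, with 0.0926 CPM in the cancer lines and 61.8 CPM in CCD841CoN.

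Of 11 substrates and partners tested, 7 were higher and 3 lower in the mean of the cancer lines (24.8% of all genes higher, 22.3% lower). EPCAM, a matriptase substrate, and CLDN7, its partner at epithelial junctions, averaged 1566 and 435 CPM in the cancer lines and 0.108 and 0.599 CPM in CCD841CoN. SCNN1A, a subunit of the epithelial sodium channel that prostasin can activate, averaged 3.13 ± 0.82 CPM in LoVo, 423 ± 52.1 CPM in LS1034, 192 CPM in HT-29 and 81.2 CPM in HCT116, against 0.0993 CPM in CCD841CoN. HGF, the growth factor that matriptase can process, averaged 0.180 CPM in the cancer lines and 218 CPM in CCD841CoN, and PLAU, urokinase, 17.8 CPM in the cancer lines and 2805 CPM in CCD841CoN.

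**Figure D3:**
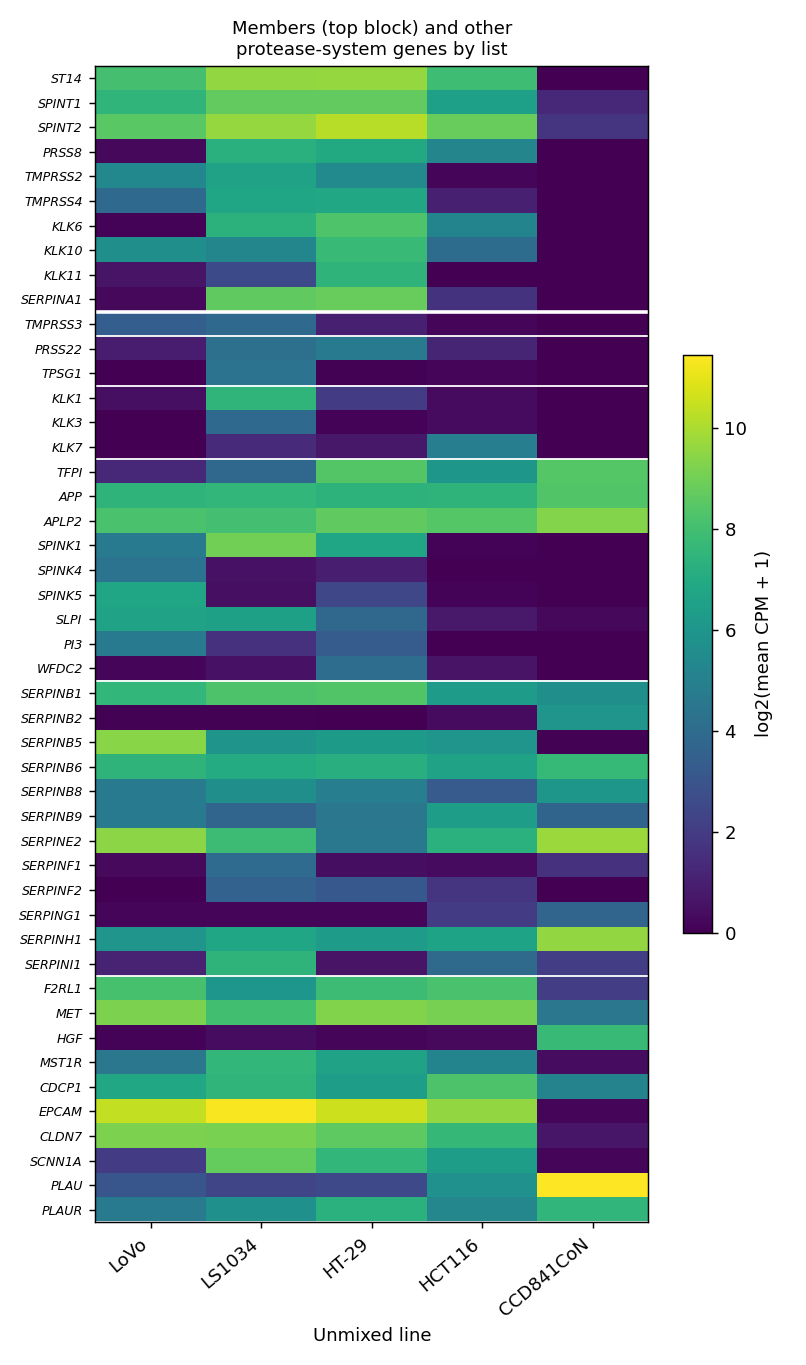
Mean level, as log2(CPM + 1), of the 10 genes (top block) and of 37 of the listed genes that reach 10 CPM in an unmixed line, with the 5 lines in columns and thin lines between the lists. EPCAM and CLDN7 are bright in the cancer lines, and HGF and PLAU in CCD841CoN.

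In the mixtures, the 10 genes climbed with the labelled share of cancer RNA. Between 1% and 0.1%, with 4 mixtures each, 7 of the 10 were called higher at an adjusted p below 0.05, where 0.939% of the 13212 genes tested were called higher and 0% lower. The 3 not called were SPINT1 (adjusted p = 0.519), PRSS8 (0.399) and KLK11 (adjusted p = 1). At 10% all 10 were called higher than at 0.1% (6.21% of all genes higher, 1.18% lower), and at 50% all 10 again (30.1% higher, 24.1% lower). SPINT2 had the smallest standard error, with log2 fold changes of 1.86 ± 0.18, 4.89 ± 0.19 and 6.86 ± 0.20 (SE) at 1, 10 and 50%. The comparisons share the 0.1% mixtures, and the 4 mixtures of a percentage are of 4 different lines. All 10 genes were called higher in the mean of the unmixed cancer lines than in unmixed CCD841CoN. A rise with the share of cancer RNA was thus built into the set and is no separate result. Several 1% calls were lost when the mixtures of 1 line were left out. For ST14 this was LS1034 (adjusted p = 0.0519), and for TMPRSS2 LS1034 (0.0806) or HT-29 (0.0646). For TMPRSS4 it was LoVo (0.0505), LS1034 (0.629) or HT-29 (0.568), and for KLK10 LoVo (0.294), HT-29 (0.745) or HCT116 (0.0940). KLK6 lost its call without LoVo (0.0519), LS1034 (0.177), HT-29 (0.445) or HCT116 (0.128). With DESeq2, TMPRSS4 (adjusted p = 1) and KLK6 (0.607) lost their calls at 1%, and KLK11 at 10% (0.294).

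In the HT-29 series, ST14 had 2.20 CPM at 0.1%, 19.4 at 1%, 126 at 10% and 474 at 50%, against 0.0271 CPM in unmixed CCD841CoN. In the LoVo series it had 0, 2.07, 28.4 and 127 CPM. KLK11 in the HT-29 series had 0.688, 2.41, 29.5 and 119 CPM, and in the LS1034 series 0, 0, 0.318 and 2.30 CPM. SERPINA1 in the LS1034 series had 0.580, 7.76, 58.4 and 244 CPM. Each of these series climbed with the label wherever it had counts. Not every series did: SPINT1 in LoVo had 3.47 CPM at 0.1% and 3.22 CPM at 1%, and KLK11 in LoVo 0.194 CPM at 10% and 0 at 50%. KLK6 had no count in any LoVo mixture, and TMPRSS2, TMPRSS4 and KLK11 had none in any HCT116 mixture.

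**Figure D4:**
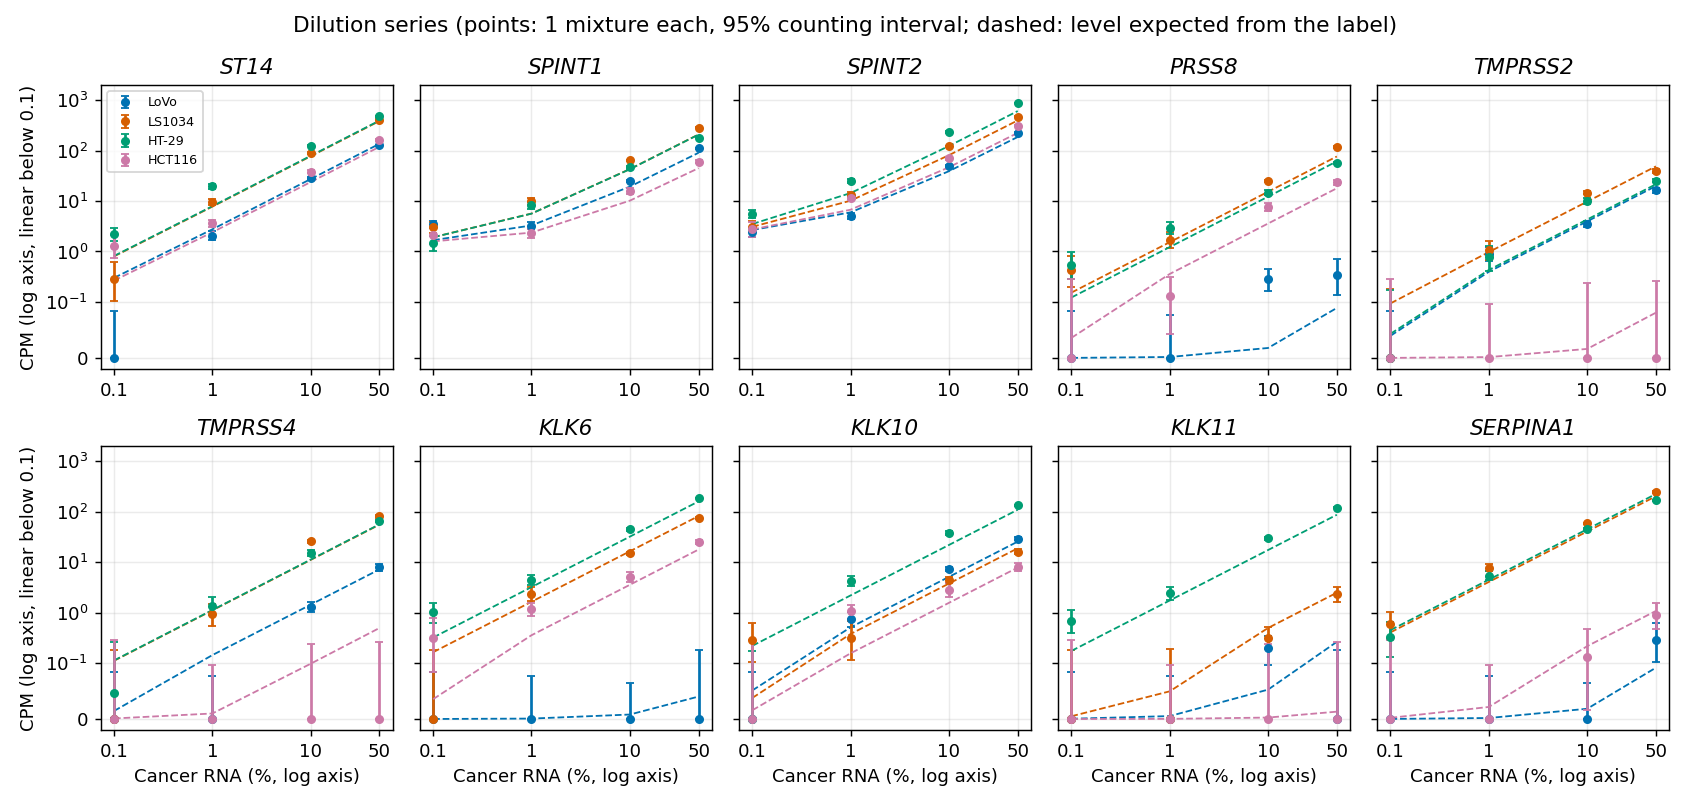
CPM of each gene against the labelled percentage of cancer RNA, both on log axes (the vertical one linear below 0.1), for the 4 dilution series, with 1 mixture per point and its 95% counting interval. Dashed lines give the level expected from the unmixed libraries and the label, and the HT-29 points of ST14 lie above theirs.

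At 0.1%, transcripts of these genes were found in part of the cases. SPINT1 and SPINT2 are left out of these counts, since CCD841CoN RNA alone gives 65.4 to 94.4% of their expected level at 0.1%. Of the other genes at 10 CPM or more in the unmixed line, 0 of 4 had counts in the LoVo mixture, 4 of 7 in LS1034, 6 of 8 in HT-29 and 2 of 4 in HCT116. At 1% all had counts in the LS1034, HT-29 and HCT116 mixtures and 3 of 4 in LoVo, where TMPRSS4 had none against 6.93 expected. The LoVo mixture at 0.1% had no ST14 count where 13.2 were expected, while the HT-29 mixture at 0.1% had 48 where 17.8 were expected. In the HT-29 mixture at 0.1%, KLK6 had 22 counts, KLK11 15 and PRSS8 12, where 6.96, 3.78 and 2.67 were expected. The 3 unmixed CCD841CoN libraries had none. In the LoVo mixture at 0.1%, TMPRSS2, TMPRSS4 and KLK10 were expected at only 1.75, 0.632 and 2.25 counts, so their absence says little. Estimated from other marker genes, the 0.1% mixtures held 0.138% LoVo, 0.160% LS1034, 0.206% HT-29 and 0.138% HCT116 RNA. Detection here can therefore not be read as that of a true 0.1% or as a difference between lines.

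The observed level was set against the one expected from the label, for the 103 values with at least 10 expected counts. The median ratio was 1.01 at 0.1% (11 values, 0 to 2.70), 1.39 at 1% (27 values, 0.366 to 3.26), 1.45 at 10% (32 values, 0.644 to 2.36) and 1.18 at 50% (33 values, 0.757 to 1.53). At 0.1%, 8 of the 11 values are of SPINT1 and SPINT2, whose expected level is mostly that of CCD841CoN, so this median is not comparable with the others. Without those 2 genes the 3 values at 0.1%, all of ST14, had a median of 0.363, and the medians were 1.39, 1.43 and 1.15 at 1, 10 and 50%. Of the 103 expected levels, 82 lay outside the 95% counting interval of the observed one, 68 with the observed level above and 14 with it below. Those intervals cover counting error only, and the expected levels rest on cancer lines whose libraries varied by up to 66.9% (coefficient of variation, KLK11 in LS1034). With the share estimated from 517 to 712 other marker genes per line, 10.3% for LoVo, 13.6% for LS1034, 15.3% for HT-29 and 11.2% for HCT116 at the 10% label, 77 of 108 lay outside, 46 above and 31 below.

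Summed over the 10 genes, the 10% mixture of HT-29 had 11584 counts where the label gives 7451, a ratio of 1.55 with a counting interval of 1.53 to 1.58, and the ratio was 1.02 with the estimated share. For HCT116 at 10% the ratio was 1.56 by the label and 1.40 with the estimated share. For LoVo at 10% it was 1.19 and 1.16, and for LS1034 1.40 and 1.04. Each percentage of a line was 1 mixture, so no spread between mixtures is known.

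**Figure D5:**
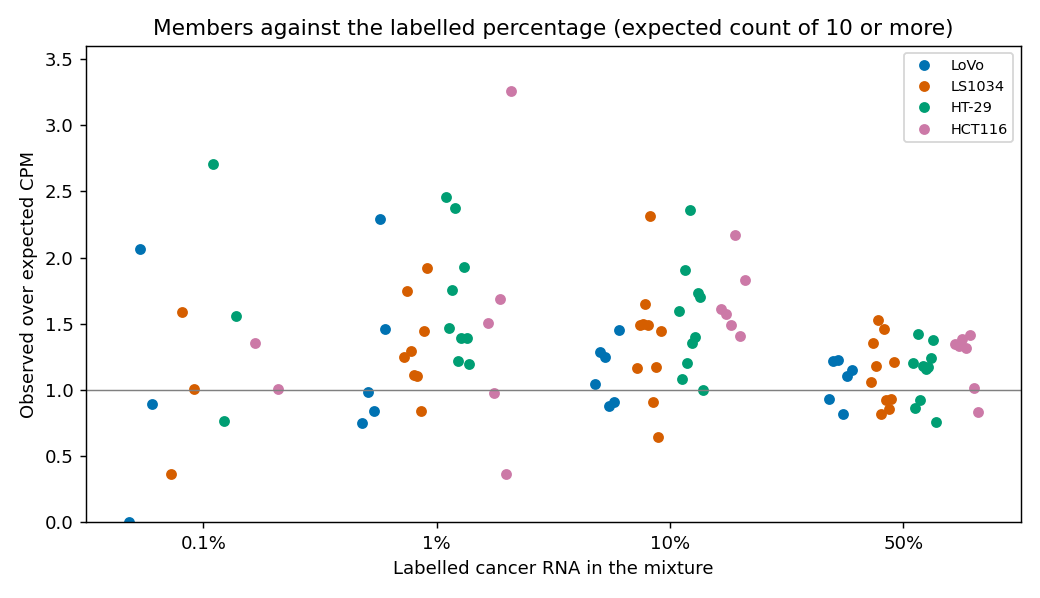
Observed over expected CPM of the 10 genes at each labelled percentage, for values with at least 10 expected counts, 1 point per gene and line. The medians are 1.01, 1.39, 1.45 and 1.18 at 0.1, 1, 10 and 50%, the first mostly of SPINT1 and SPINT2 levels from CCD841CoN, and the spread is narrowest at 50%.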

How the data were processed

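The authors deposited 1 table of raw counts per protein-coding gene in 31 libraries (9688765 to 56741879 counts each). Per the submitters' processing notes, hg19, STAR and featureCounts were used, and versions are not given in the sources used here. Per the labels' protocols, a stranded kit with removal of ribosomal RNA was used. The 10 genes and the gene lists were chosen with earlier results of these data known. The test was the quasi-likelihood one of edgeR 4.0.16, run in R 4.3.3 over all genes kept by filterByExpr, with TMM scaling and Benjamini-Hochberg adjustment: the 15 unmixed libraries in 1 fit, and the 16 mixtures with line and percentage as terms. Each SE is the size of the log2 fold change over the square root of the F statistic of that test. Such an SE is approximate, and can fail where the change is near 0 or groups have no count. The functions were tested on simulated data. CPM is the count over the coding total of the library. Same-numbered libraries of different cancer lines correlated in their deviations from the line means in all 18 pairs (0.104 to 0.732), and those with CCD841CoN did not (-0.084 to 0.014), so the numbers were taken to pair the cancer lines. DESeq2 1.42.0, other scalings, no filter, only the compared groups, a replicate block and leaving out libraries were the alternatives. A floor is 3 counts over a group, and intervals and floors cover counting error only. Names, exon lengths and places come from GENCODE release 29 (GRCh38), not the build of the authors. Beside the 10 genes, the text names the 3 genes of closest pattern to each and at most 4 per list and comparison, those called with the largest change or against the direction of the list (1 listed gene is not reported here); TFPI in HT-29 is given after its values were seen, as are the levels of PPP1R14A.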

Additional observations from a re-analysis of the deposited data

Results flagged for a closer look

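Each of the 10 genes differed between cancer lines by a test of the difference itself, which is also the difference between their contrasts with CCD841CoN. The smallest adjusted p among the called pairs (edgeR, Benjamini-Hochberg) was 7.12e-04 for ST14 in HT-29 against HCT116, 5.40e-05 for SPINT1 in LS1034 against HCT116 and 3.82e-04 for SPINT2 in LoVo against HT-29. For the proteases it was 2.23e-07 for PRSS8 in LoVo against LS1034, 8.84e-07 for TMPRSS2 in LS1034 against HCT116 and 1.37e-07 for TMPRSS4 in LS1034 against HCT116. It was 4.98e-08 for KLK6 in LoVo against HT-29, 1.00e-05 for KLK10 in HT-29 against HCT116 and 7.19e-08 for KLK11 in HT-29 against HCT116, and 2.11e-07 for SERPINA1 in LoVo against LS1034. KLK11 was called in 6 of 6 pairs and SPINT2 and TMPRSS2 in 3 each. Each p given is the smallest over the pairs of that gene, and was not corrected for that choice. Of the 14452 genes tested, a single pair called from 3191 (LoVo against HCT116) to 4754 (LS1034 against HCT116). The share of all genes called in at least 1 pair was not computed, so these counts do not set the 10 genes apart.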

How the results depend on the processing

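Over all alternatives run, 2513 values of the 10 genes kept direction and call, 31 lost the call, 23 gained it and 22 changed sign. The sign changes were in differences that were not called. For SPINT1 in LS1034 against HT-29 the log2 fold change became 0.0164 with DESeq2 size factors and with DESeq2, 0.0075 with library size only, and -0.26 to 0.20 without 1 library (LoVo replicates 1, 2 and 3: 0.0019, 0.0374 and 0.0021; LS1034 replicates 1 and 2: 0.11 and 0.20; HT-29 replicates 1 and 2: 0.15 and 0.0597; HCT116 replicates 1 and 2: 0.0015 and 0.0371). In the same pair, leaving out 1 library gave -0.38 to 0.34 for TMPRSS4 (with 0.0023, 0.12 and 0.0021 among the changed signs), -0.17 to 0.12 for ST14, -0.40 to 0.12 for SERPINA1 (0.0159 the other changed sign) and -0.0385 to 0.64 for PRSS8. ST14 in LoVo against HCT116 gave -0.13 to 0.50, with -0.0394 the other changed sign. Counts of genes called moved most when the mixtures of 1 line were left out: 124 genes at 1% became 61 to 116, and 976 at 10% became 556 to 725; 72 and 643 were called without LoVo, 61 and 595 without LS1034, and 74 and 556 without HT-29. The share of higher calls against CCD841CoN was 55.1% in LoVo and 54.5% in HCT116, 65.2% and 64.9% with library size only, 50.4% and 48.8% with DESeq2 size factors, and 50.7% and 49.0% with DESeq2. The median log2 fold change of all genes in LoVo against CCD841CoN was 0.23, against 0.56 with library size only and 0.083 with DESeq2 size factors. In the 10% against the 0.1% mixtures the share of higher calls was 84.0%, against 97.2% with library size only and 70.3% with DESeq2. The replicate block changed 3 calls of the 10 genes, given above, and no other; among the cancer lines only it gave 0.0286 for TMPRSS2 in LoVo against LS1034 and 0.0213 for KLK6 in LS1034 against HT-29. Without HCT116 replicate 2, TMPRSS2 has no count in HCT116 or CCD841CoN and its mean over the lines was not called. The cause of these changes was not tested, and counts near 0 limit PRSS8, KLK6 and SERPINA1 in LoVo and TMPRSS2 and KLK11 in HCT116.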
